A study of Homo sapiens with 12 samples.

Results

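Transcripts of 10 glycolysis genes were followed through a Halo-tag purification: SLC2A1, GPI, ALDOA, TPI1, GAPDH, PGK1, PGAM1, ENO1, PKM and LDHA. They were taken by gene symbol from 25369 genes in the deposited tables, and all 10 symbols were present. The rule uses no measured value, but the genes were chosen with earlier results of these data known. All 10 passed the filter on low values, in every group and not through 1 group alone. Glycolysis splits glucose into pyruvate in the cytosol and yields ATP and NADH without oxygen. SLC2A1 (GLUT1) brings glucose into the cell, a chain of soluble enzymes carries it to pyruvate, and LDHA turns pyruvate into lactate while restoring NAD+. These mRNAs are abundant in most proliferating human cell lines, are translated on free cytosolic ribosomes apart from that of the membrane protein SLC2A1, and include that of GAPDH, a customary reference gene for expression assays.

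The study transfected a human embryonic kidney line with plasmids and asked which RNAs travel with TNIP2, an adaptor protein that binds ubiquitin and restrains NF-kB signalling. The labels call the line HEK293T, whereas the growth conditions call it HEK293. The 4 groups, with 3 libraries each, were TNIP2 Pulldown and TNIP2 Input (the Halo tag joined to TNIP2 residues 196 to 346, a fragment and not the whole protein) and Control Pulldown and Control Input (Halo tag alone). Input RNA came from 100 µl of whole extract and Pulldown RNA from 90 µl of material purified through the tag, in both cases after ribosomal RNA removal. The construct was expressed from a plasmid on top of the cell's own TNIP2. The labels do not say whether replicates were separate transfections. The p-values therefore describe only how these libraries vary, which could be technical variation.

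Normalized counts are the authors' scaled, whole-number values per gene. Recovered depth was 10313195 to 29528904 reads in TNIP2 Pulldown, 3591134 to 6404730 in Control Pulldown, 8898481 to 16759371 in TNIP2 Input and 13793442 to 20791351 in Control Input. The TNIP2 transcript, which the plasmid partly encodes, had 51905, 69806 and 193013 normalized counts in TNIP2 Pulldown and 16750, 13318 and 46568 in TNIP2 Input, against 309 to 1472 in Control Pulldown and 272 to 304 in Control Input. The libraries thus matched their construct labels. TNIP2 Pulldown and TNIP2 Input libraries numbered 3 stood apart, at -47.8 and -54.7 on a second principal component (11.1% of the variance) on which the other 10 lay between -2.84 and 25.7. Of the markers listed for the line, 8 of 8 were tested, with summed normalized counts of 5598 to 7199 in TNIP2 Pulldown, 3249 to 3856 in Control Pulldown, 2757 to 3877 in TNIP2 Input and 3186 to 3505 in Control Input. Blood markers summed to 18 to 111 with CD3E and HBB at 0 throughout, fibroblast and endothelial markers to 59 to 146, and hepatocyte markers to 5 to 42.

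Several glycolysis genes are textbook targets of the hypoxia-inducible factor HIF-1, which binds a core of ACGTG or GCGTG. The 250 bases before the transcription start of LDHA, PGK1 and TPI1 are shown because these genes gave contrasting values in the purified RNA. Sequences and coordinates are those of RefSeq on GRCh38.p14, not the build hg19 of the deposited tables, and run 5′ to 3′ on the gene's strand. Capitals mark ACGTG or GCGTG on either strand, and CACGTG holds a match on both.
LDHA, chr11:18394313-18394562, plus strand: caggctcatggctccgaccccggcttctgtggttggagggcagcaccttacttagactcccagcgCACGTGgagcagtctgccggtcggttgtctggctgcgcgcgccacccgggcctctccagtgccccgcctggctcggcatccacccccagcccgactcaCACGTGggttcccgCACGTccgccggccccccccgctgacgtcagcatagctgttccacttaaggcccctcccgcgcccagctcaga
PGK1, chrX:78103998-78104247, plus strand: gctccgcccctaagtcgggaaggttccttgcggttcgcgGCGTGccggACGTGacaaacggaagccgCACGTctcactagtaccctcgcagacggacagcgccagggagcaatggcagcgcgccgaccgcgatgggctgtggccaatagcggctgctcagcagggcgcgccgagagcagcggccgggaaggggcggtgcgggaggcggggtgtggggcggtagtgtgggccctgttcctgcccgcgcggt
TPI1, chr12:6867281-6867530, plus strand: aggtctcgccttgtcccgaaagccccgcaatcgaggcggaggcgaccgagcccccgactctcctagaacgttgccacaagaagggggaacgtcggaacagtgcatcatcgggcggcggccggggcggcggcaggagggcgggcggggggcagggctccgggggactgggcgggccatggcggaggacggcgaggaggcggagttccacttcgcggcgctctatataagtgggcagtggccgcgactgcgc
LDHA had 5 matches, PGK1 had 3 and this TPI1 promoter had 0, while a further promoter in the table had 2 for TPI1 and 1 for LDHA. Of 14 promoters listed for the 10 genes, 10 (71.4%) held a match, against 43.2% of all 35116 promoters of this length. ALDOA, TPI1 and LDHA are listed with more than 1 promoter each, and by gene 7 of 10 had a match in any promoter. Median GC content was 70.2% in the promoters of the 10 genes and 58% over all promoters. The libraries measured RNA and not binding to DNA, so the matches are a description of the sequences alone.

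**Figure D1:**
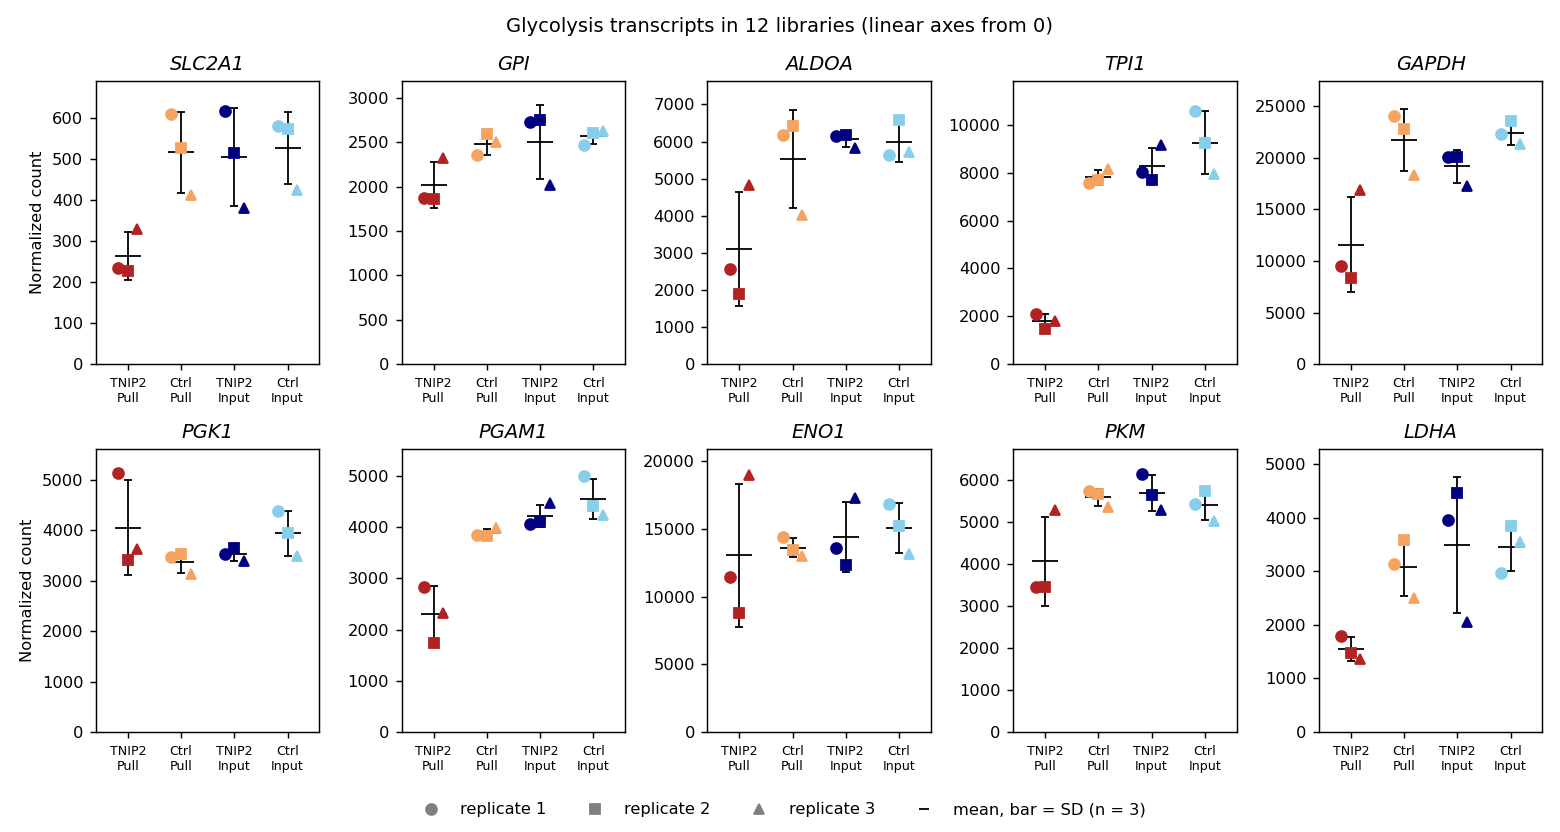
Normalized counts of each gene in the 12 libraries, on linear axes from 0, with the symbol's shape giving the replicate number and the black lines giving the mean and SD of 3 libraries. TPI1 in TNIP2 Pulldown lay between 1473 and 2080, below all 9 other libraries, whereas PGK1 in TNIP2 Pulldown lay between 3405 and 5134 and overlapped every other group.

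TNIP2 Pulldown was set against TNIP2 Input to ask which RNAs were depleted or enriched by purification through the TNIP2 fragment. Most glycolysis transcripts were lower in the purified RNA than in the extract. TPI1 fell most, to 21.4% of its Input level. LDHA, ALDOA, SLC2A1, PGAM1, GAPDH and PKM fell to between 46.5% and 70.2%. GPI, ENO1 and PGK1 did not pass the test, with PGK1 the only gene of the 10 whose fitted change was above 0. In limma, with calls at an adjusted p under 0.05, 7 of 10 were lower and 0 were higher, where 58.1% of the 14627 genes tested were called, 28.3% lower and 29.8% higher. The median log2 fold change of the 10 was -0.85, against 0.01 over all genes tested, and 6 of the 10 had all TNIP2 Pulldown libraries below all TNIP2 Input libraries, as did 28.1% of genes tested (29.4% lay wholly above).

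The first steps take up glucose and prepare it for cleavage. SLC2A1, the glucose transporter of the plasma membrane, had 234, 226 and 330 normalized counts in TNIP2 Pulldown and 618, 514 and 381 in TNIP2 Input. The groups did not overlap, and the library numbered 3 of each lay closest to the other group. SLC2A1 fell by 0.93 on the log2 scale (SE 0.22, adjusted p = 0.0023). GPI, which turns glucose 6-phosphate into fructose 6-phosphate, had 1870, 1858 and 2316 in TNIP2 Pulldown and 2731, 2749 and 2017 in TNIP2 Input. The groups overlapped through their libraries numbered 3, and the log2 fold change of -0.30 (95% interval -0.63 to 0.02, adjusted p = 0.10) was not called. It was called without TNIP2 Pulldown replicate 3 (-0.41, adjusted p = 0.024). Leaving out TNIP2 Input replicate 3 had the same effect (-0.45, adjusted p = 0.014), with adjusted p between 7.5e-05 and 0.29 over all alternatives. GPI was called lower in 7 of 24 alternatives, which included quantile normalization, centring on ribosomal protein genes, library weights and scaling to the total. ALDOA, the aldolase that splits fructose 1,6-bisphosphate into a pair of triose phosphates, had 2561, 1898 and 4841 in TNIP2 Pulldown and 6162, 6172 and 5835 in TNIP2 Input. TNIP2 Pulldown replicate 3 held 2.17 times the mean of the other libraries of its group, yet stayed below every TNIP2 Input library, and ALDOA fell by 1.08 (SE 0.27, adjusted p = 0.0030).

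TPI1 and GAPDH act next to each other in the pathway and differed in how far they fell. TPI1, the isomerase that interconverts the triose phosphates, had 2080, 1473 and 1815 normalized counts in TNIP2 Pulldown and 8033, 7709 and 9145 in TNIP2 Input. Its highest TNIP2 Pulldown library lay far below the lowest TNIP2 Input library, a 4.67-fold drop (log2 fold change -2.22, SE 0.16, 95% interval -2.56 to -1.88, adjusted p = 6.1e-08). Among the 14627 genes tested it had the 243rd lowest log2 fold change. GAPDH, which oxidizes glyceraldehyde 3-phosphate and makes NADH, had 9535, 8314 and 16868 in TNIP2 Pulldown and 20059, 20084 and 17263 in TNIP2 Input. The groups were separate by a narrow margin at their libraries numbered 3, and GAPDH fell by 0.79 (SE 0.22, adjusted p = 0.0063). The TPI1 to GAPDH ratio of normalized counts within a library was 0.218, 0.177 and 0.108 in TNIP2 Pulldown, against 0.400, 0.384 and 0.530 in TNIP2 Input. It was 0.316, 0.338 and 0.447 in Control Pulldown and 0.475, 0.393 and 0.373 in Control Input, so every TNIP2 Pulldown library had a lower ratio than any other library.

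The steps after GAPDH lead to pyruvate. PGK1, the first ATP-forming enzyme, had 5134, 3405 and 3618 normalized counts in TNIP2 Pulldown and 3536, 3649 and 3387 in TNIP2 Input. Only TNIP2 Pulldown replicate 1 stood clear of the Input libraries, and the log2 fold change was 0.18 (95% interval -0.17 to 0.53, adjusted p = 0.37). Its direction depended on the scaling, at -0.43 (adjusted p = 0.022) under quantile normalization. PGAM1, a phosphoglycerate mutase, had 2835, 1732 and 2330 in TNIP2 Pulldown and 4070, 4111 and 4466 in TNIP2 Input. The groups did not overlap, and PGAM1 fell by 0.90 (SE 0.17, adjusted p = 2.9e-04).

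ENO1, the enolase, had 11433, 8816 and 18967 normalized counts in TNIP2 Pulldown and 13592, 12322 and 17277 in TNIP2 Input. The library numbered 3 was the highest of both groups, and the groups overlapped (log2 fold change -0.20, 95% interval -0.69 to 0.29, adjusted p = 0.48). Without TNIP2 Pulldown replicate 3, ENO1 was called lower (-0.51, adjusted p = 0.019), with 0.0045 to 0.87 over all alternatives. ENO1 was called lower in 4 of 24 alternatives, which included quantile normalization and scaling to the total. PKM, the pyruvate kinase that forms ATP and pyruvate, had 3460, 3455 and 5281 in TNIP2 Pulldown and 6134, 5649 and 5276 in TNIP2 Input. The groups just overlapped at their libraries numbered 3, and PKM fell by 0.51 (SE 0.17, adjusted p = 0.016). That call ended without TNIP2 Pulldown replicate 1 (-0.41, adjusted p = 0.061), TNIP2 Pulldown replicate 2 (-0.41, adjusted p = 0.063) or TNIP2 Input replicate 1 (-0.46, adjusted p = 0.063). It also ended when only the groups compared were fitted (adjusted p = 0.089), with 1.7e-06 to 0.089 over all alternatives. LDHA, which reduces pyruvate to lactate, had 1794, 1481 and 1371 in TNIP2 Pulldown and 3947, 4464 and 2059 in TNIP2 Input. The groups did not overlap, although TNIP2 Input replicate 3 held 0.490 times the mean of the other libraries of its group, and LDHA fell by 1.10 (SE 0.24, adjusted p = 0.0013).

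TNIP2 Pulldown replicate 3 differed by gene rather than uniformly. Relative to the mean of libraries 1 and 2 it held 2.17 times the ALDOA count, 1.89 times that of GAPDH, 1.87 times that of ENO1 and 1.53 times that of PKM. TPI1 and PGAM1 were both at 1.02 times, PGK1 at 0.847 and LDHA at 0.837. The median log2 value of the 10 genes relative to their mean in TNIP2 Input was -0.80, -1.14 and -0.25 in TNIP2 Pulldown libraries 1, 2 and 3. Without TNIP2 Pulldown replicate 3, 9 of 10 genes were called lower, where 4343 of 14512 genes tested were. Without both TNIP2 libraries numbered 3, an alternative chosen after seeing the data, 9 were lower, where 4541 of 14627 genes tested were. SLC2A1, ALDOA, TPI1, GAPDH, PGAM1 and LDHA kept their calls in all 24 alternatives run.

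**Figure D2:**
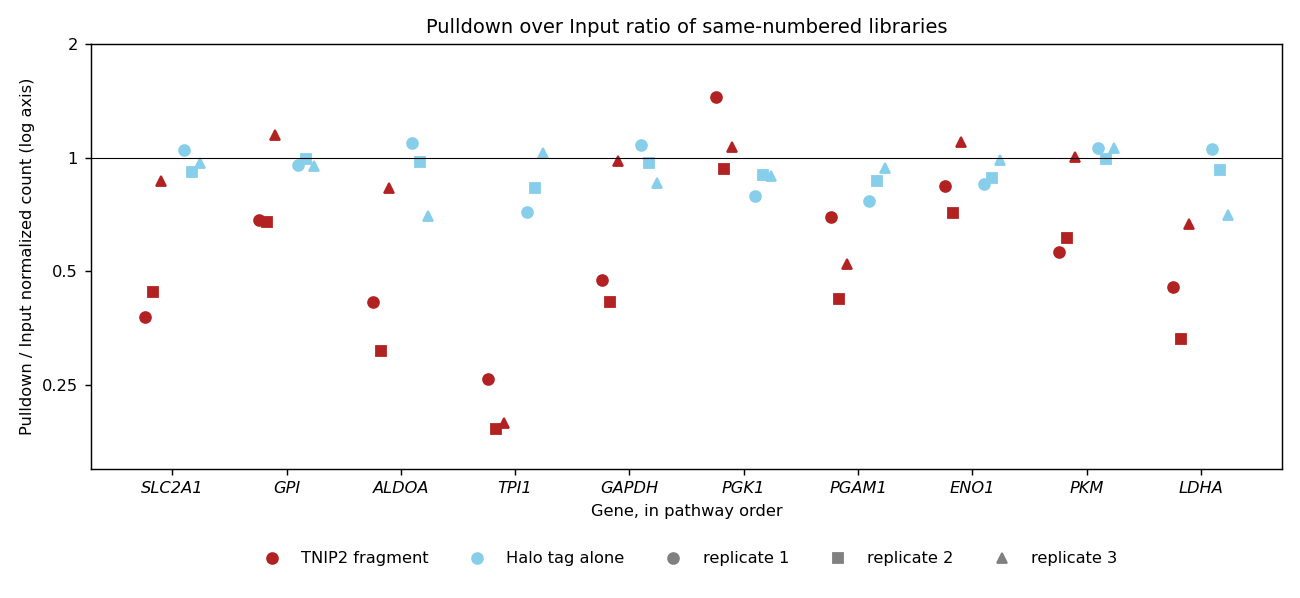
Pulldown over Input ratio of normalized counts for same-numbered libraries, on a log axis, with genes in pathway order and the symbol's shape giving the replicate number. TPI1 with the TNIP2 fragment lay at 0.259, 0.191 and 0.198, while with the Halo tag alone the ratios of all 10 genes lay between 0.702 and 1.10.

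TNIP2 Pulldown against Control Pulldown asked whether purified RNA differed between the TNIP2 fragment and the tag alone. It shares the TNIP2 Pulldown libraries with the comparison above, so its values are given side by side with those and not as a second line of evidence. The same 7 genes were lower here: TPI1, SLC2A1, LDHA, GAPDH, ALDOA, PGAM1 and PKM. None was higher, where 59.4% of genes tested were called, 28.7% lower and 30.6% higher. The median log2 fold change was -0.85, against 0.03 over all genes tested. In 7 of the 10, all TNIP2 Pulldown libraries lay below all Control Pulldown libraries, as in 29.5% of genes tested (31.5% lay wholly above).

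TPI1 again differed most, with 2080, 1473 and 1815 normalized counts in TNIP2 Pulldown, against 7586, 7684 and 8170 in Control Pulldown (log2 fold change -2.14, SE 0.16, adjusted p = 6.9e-08). GAPDH had 9535, 8314 and 16868 in TNIP2 Pulldown, against 24025, 22721 and 18280 in Control Pulldown, and fell by 0.97 (SE 0.22, adjusted p = 0.0015). Both genes were separate between the groups, but the GAPDH values of libraries numbered 3 lay close to each other. SLC2A1 had 610, 526 and 412 in Control Pulldown, all above its TNIP2 Pulldown values, and fell by 0.97 (SE 0.22, adjusted p = 0.0016). LDHA had 3139, 3575 and 2498 in Control Pulldown and fell by 0.98 (SE 0.24, adjusted p = 0.0030). PGAM1, with 3840, 3837 and 3983 in Control Pulldown, fell by 0.79 (SE 0.17, adjusted p = 8.6e-04), and these genes too were separate between the groups.

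ALDOA had 6172, 6418 and 4018 normalized counts in Control Pulldown, and the lowest of these was under the 4841 of TNIP2 Pulldown replicate 3. It fell by 0.92 (SE 0.27, adjusted p = 0.0083) and is the 1 called gene whose groups overlapped. PKM had 5739, 5669 and 5347 in Control Pulldown and fell by 0.49 (SE 0.17, adjusted p = 0.020). Its call ended without TNIP2 Pulldown replicate 1 (-0.39, adjusted p = 0.074), TNIP2 Pulldown replicate 2 (-0.38, adjusted p = 0.076) or either of Control Pulldown replicate 1 (-0.47, adjusted p = 0.060) and replicate 2 (-0.48, adjusted p = 0.057). It also ended when only the groups compared were fitted (adjusted p = 0.061), with 3.7e-05 to 0.076 over all alternatives.

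GPI had 2351, 2586 and 2498 normalized counts in Control Pulldown, all above TNIP2 Pulldown, but its log2 fold change of -0.31 (95% interval -0.63 to 0.02, adjusted p = 0.10) was not called. ENO1 had 14397, 13470 and 12986 in Control Pulldown, within the range of TNIP2 Pulldown, at -0.13 (95% interval -0.63 to 0.36, adjusted p = 0.64). Without TNIP2 Pulldown replicate 3, GPI (-0.41, adjusted p = 0.024) and ENO1 (-0.44, adjusted p = 0.037) were called lower, and GPI also without TNIP2 Input replicate 3 (-0.31, adjusted p = 0.048). Over all alternatives the adjusted p was 0.0011 to 0.22 for GPI and 0.012 to 0.83 for ENO1. Quantile normalization also called both genes lower. Centring on ribosomal protein genes, library weights and scaling to the total called GPI lower but not ENO1. PGK1 had 3462, 3538 and 3129 in Control Pulldown and a log2 fold change of 0.24 (95% interval -0.11 to 0.59, adjusted p = 0.22), or -0.38 (adjusted p = 0.039) under quantile normalization.

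**Figure D3:**
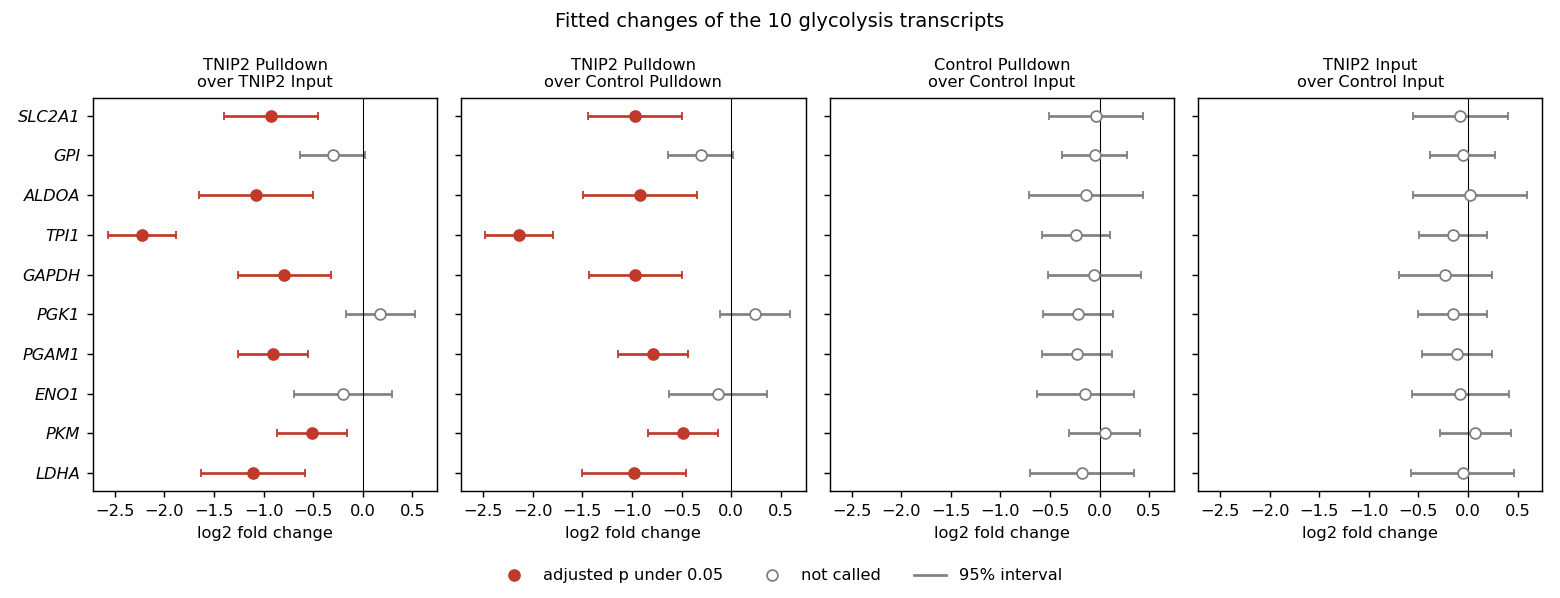
Fitted log2 fold changes (x axis) of each gene (y axis, in pathway order) with 95% intervals (horizontal bars, 12 libraries in the fit) for the 4 comparisons of groups, with red filled points called at an adjusted p under 0.05 and open grey points not called. The 7 called genes lie left of 0 in both comparisons that involve TNIP2 Pulldown, and all points of the other comparisons lie between -0.23 and 0.08.

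Control Pulldown against Control Input asked what the tag and resin carry by themselves. None of the 10 transcripts was called higher or lower in limma, and 0 had an unadjusted p under 0.05. In this comparison 0.137% of genes tested were called. Log2 fold changes ran between -0.23 for TPI1 (95% interval -0.58 to 0.11) and 0.05 for PKM (95% interval -0.30 to 0.41), with a median of -0.14. The median was -0.05 without Control Pulldown replicate 3 or under quantile normalization and -0.08 without Control Input replicate 2. TPI1 had 7586, 7684 and 8170 normalized counts in Control Pulldown and 10581, 9227 and 7949 in Control Input, so the groups overlapped. PGAM1, at 3840, 3837 and 3983 in Control Pulldown and 4998, 4424 and 4238 in Control Input, was the 1 gene of the 10 without overlap (log2 fold change -0.22, 95% interval -0.58 to 0.13), where 7.15% of genes tested lay wholly below and 5.83% wholly above. The SE of the 10 genes was 0.15 to 0.27, and these intervals do not show that the levels were equal.

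TNIP2 Input against Control Input asked whether the extracts differed before purification. None of the 10 transcripts was called in limma, and 0 had an unadjusted p under 0.05. TNIP2 was the only gene called, which is 0.00684% of those tested. Log2 fold changes ran between -0.23 for GAPDH (95% interval -0.70 to 0.24) and 0.08 for PKM (95% interval -0.28 to 0.43), with a median of -0.08. The median was -0.16 without Control Input replicate 3, -0.13 without TNIP2 Input replicate 1, -0.04 without Control Input replicate 1, -0.04 without TNIP2 Input replicate 3 and -0.02 under quantile normalization. GAPDH had 20059, 20084 and 17263 normalized counts in TNIP2 Input and 22284, 23493 and 21289 in Control Input, and was the 1 gene of the 10 without overlap, where 5.32% of genes tested lay wholly below and 3.62% wholly above. LDHA spread most within TNIP2 Input, at 3947, 4464 and 2059, against 2969, 3849 and 3544 in Control Input (log2 fold change -0.05, 95% interval -0.58 to 0.47). SLC2A1 had 618, 514 and 381 in TNIP2 Input and 581, 573 and 425 in Control Input, with the library numbered 3 lowest in both groups.

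The difference of enrichments is the log2 change from extract to purified RNA with the TNIP2 fragment, minus the same change with the tag by itself. TPI1 was lowest, at -1.99 on the log2 scale (SE 0.23, 95% interval -2.47 to -1.50, adjusted p = 1.3e-05), with Pulldown over Input ratios of 0.259, 0.191 and 0.198 for the TNIP2 fragment and 0.717, 0.833 and 1.03 for the tag alone. LDHA (-0.93, SE 0.35, adjusted p = 0.042), SLC2A1 (-0.90, SE 0.31, adjusted p = 0.032) and PGAM1 (-0.68, SE 0.23, adjusted p = 0.030) were also called lower. That made 4 of 10 lower and 0 higher, where 42.8% of genes tested were called, 20.2% lower and 22.6% higher. ALDOA (-0.94, adjusted p = 0.058), GAPDH (-0.74, adjusted p = 0.068) and PKM (-0.56, adjusted p = 0.066) missed the threshold, although ALDOA was called with the replicate block (adjusted p = 0.024). These genes had ratios of 0.830, 0.977 and 1.00 in the TNIP2 pair numbered 3. GPI was at -0.25 (95% interval -0.72 to 0.21), ENO1 at -0.06 (95% interval -0.75 to 0.64) and PGK1 at 0.39 (95% interval -0.10 to 0.89). The median was -0.71, against 0.02 over all genes tested.

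TPI1 kept its call on this difference in all 23 alternatives (adjusted p up to 9.3e-05). The calls of SLC2A1, PGAM1 and LDHA depended on single libraries, and that of LDHA also ended with no filter on low values (adjusted p = 0.070). The count of genes called lower was 1 without TNIP2 Pulldown replicate 2, Control Pulldown replicate 1, Control Pulldown replicate 2 or Control Input replicate 3. It was 2 without TNIP2 Input replicate 1, TNIP2 Input replicate 2 or Control Input replicate 2, and 3 without TNIP2 Pulldown replicate 1 or Control Input replicate 1. It was 6 without TNIP2 Pulldown replicate 3, where ALDOA (-1.32, adjusted p = 8.7e-04), GAPDH (-1.05, adjusted p = 6.2e-04) and PKM (-0.77, adjusted p = 0.0014) were called and LDHA (-0.84, adjusted p = 0.067) was not. ALDOA was also called without Control Pulldown replicate 3 (-1.16, adjusted p = 0.029), and PGAM1 was not (-0.66, adjusted p = 0.061). Over all alternatives the adjusted p reached 0.090 for SLC2A1, 0.074 for PGAM1 and 0.11 for LDHA. Of all genes tested, 2498 to 3414 were called lower with 1 library left out, against 2960 as reported.

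Levels per length, as deposited FPKM, set the genes in an order. In TNIP2 Pulldown GAPDH was highest at 538 ± 215 FPKM (SD, n = 3), followed by ENO1 at 353 ± 142, PGK1 at 147 ± 34.2, PGAM1 at 117 ± 28.2, PKM at 112 ± 29.1, TPI1 at 84.7 ± 14.4, ALDOA at 84.5 ± 42.1, LDHA at 53.3 ± 7.55, GPI at 39.6 ± 5.13 and SLC2A1 at 6.31 ± 1.38. The ranges of GAPDH and ENO1 overlapped, as did those of each neighbouring pair between PGK1 and LDHA. In Control Input GAPDH was at 1039 ± 51.3 FPKM, TPI1 at 438 ± 62.3, ENO1 at 408 ± 49.96, PGAM1 at 233 ± 20.2, ALDOA at 163 ± 14.4, PKM at 149 ± 9.65, PGK1 at 143 ± 16.1, LDHA at 119 ± 15.4, GPI at 50.4 ± 1.72 and SLC2A1 at 12.6 ± 2.10. There TPI1 and ENO1 overlapped, as did neighbours between ALDOA and LDHA. TPI1 was number 6 of the 10 in TNIP2 Pulldown and number 2 in Control Input, and PGK1 was number 3 in TNIP2 Pulldown and number 7 in Control Input. Among all genes by mean FPKM, TPI1 ranked 959 in TNIP2 Pulldown and 121 in Control Input, and GAPDH 122 in TNIP2 Pulldown and 61 in Control Input. Together the 10 genes held 0.280%, 0.217% and 0.457% of all normalized counts in TNIP2 Pulldown, against 0.601% to 0.715% in the other 9 libraries. All normalized counts summed to 14604617, 15074851 and 12639745 in TNIP2 Pulldown and to between 10196544 and 11068819 in the other 9. The larger totals lower these shares as well.

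The transcripts differ in properties that counting could touch. Exonic lengths recovered from the tables run from 1730 bases for PGAM1 and 1867 for TPI1 to 4501 for GPI. Across the 10 genes, exonic length and the TNIP2 Pulldown over TNIP2 Input log2 fold change had a Spearman rho of 0.28 (n = 10 genes from the same libraries), and mean normalized count had a rho of 0.05. RefSeq lists 65 pseudogenes of GAPDH, 13 of PGAM1, 6 of LDHA, 5 of PKM, 4 each of TPI1 and ENO1, 2 each of ALDOA and PGK1, and 0 of SLC2A1 and GPI. Reads of near-identical copies could be split or shared, so the levels of GAPDH and PGAM1 are the least certain in this respect. In the tables TPI1P2 had 19 to 31 normalized counts in TNIP2 Pulldown and 27 to 58 in TNIP2 Input, TPI1P3 had at most 2 in any group, and PGAM1P5 had at most 8.

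Other glycolysis genes were read for comparison, from lists chosen with earlier results of these data known. Of 27 listed, 18 were tested in TNIP2 Pulldown over TNIP2 Input, with 4 higher, 2 lower and a median log2 fold change of 0.01. The hexokinases, which trap glucose as glucose 6-phosphate, did not pass the test, with HK1 at -0.09 and HK2 at 0.12. Among phosphofructokinases, the committed step of the pathway, PFKL fell by 0.78 (adjusted p = 0.0017), while PFKM at -0.11 and PFKP at 0.43 were not called. PFKL had 932, 818 and 1302 normalized counts in TNIP2 Pulldown and 1741, 1800 and 1606 in TNIP2 Input, without overlap. PFKFB3 and PFKFB2, which make the activator fructose 2,6-bisphosphate, rose by 1.74 (adjusted p = 7.8e-05) and 0.80, while PFKFB1 at 1.05 (adjusted p = 0.16) and PFKFB4 at 0.25 (adjusted p = 0.38) were not called. PFKFB3 had 1667, 2109 and 1387 in TNIP2 Pulldown and 559, 663 and 355 in TNIP2 Input. LDHB, the other main lactate dehydrogenase subunit, had 9392, 7224 and 8192 in TNIP2 Pulldown and 10586, 9814 and 9825 in TNIP2 Input, at -0.29 (adjusted p = 0.090). The lactate and pyruvate transporter SLC16A1 at -0.46 and the ADP-dependent glucokinase ADPGK at -0.33 were not called. ALDOC (-1.38), BPGM (1.34) and SLC2A3 (0.98), chosen after their values were seen, complete the 6 genes called.

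Counts in neighbouring pathways are read against the 29.8% of all genes tested that were higher in this comparison and the 28.3% that were lower. In the pentose phosphate pathway 2 of 7 were higher and 4 lower, with TALDO1 (transaldolase) up by 1.80 and TKT (transketolase) at -0.87, RPE at -1.71 and PGD at 0.18, the last not called. Of 21 pyruvate dehydrogenase and citric acid cycle genes, 6 were higher and 7 lower, with a median of 0.11. SDHB, a subunit of succinate dehydrogenase, had 7717, 6625 and 7022 normalized counts in TNIP2 Pulldown and 1623, 1401 and 2138 in TNIP2 Input (log2 fold change 2.07). SDHD (0.89), MDH2 (0.56) and PDHB (0.36) were higher as well. Of 4 gluconeogenesis genes tested, G6PC3 (-2.75) and PCK2 (-1.40) were lower, PCK1 (1.48) was higher and PC (-0.30) was not called. Of 7 hypoxia-induced genes outside glycolysis, 3 were higher and 2 lower, with BNIP3 at 1.02 and P4HA1 at -1.92 called and VEGFA at -0.00 and NDRG1 at -0.44 not called. None of these lists had a gene called in Control Pulldown over Control Input or in TNIP2 Input over Control Input, where 0.137% and 0.00684% of all genes tested were called.

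**Figure D4:**
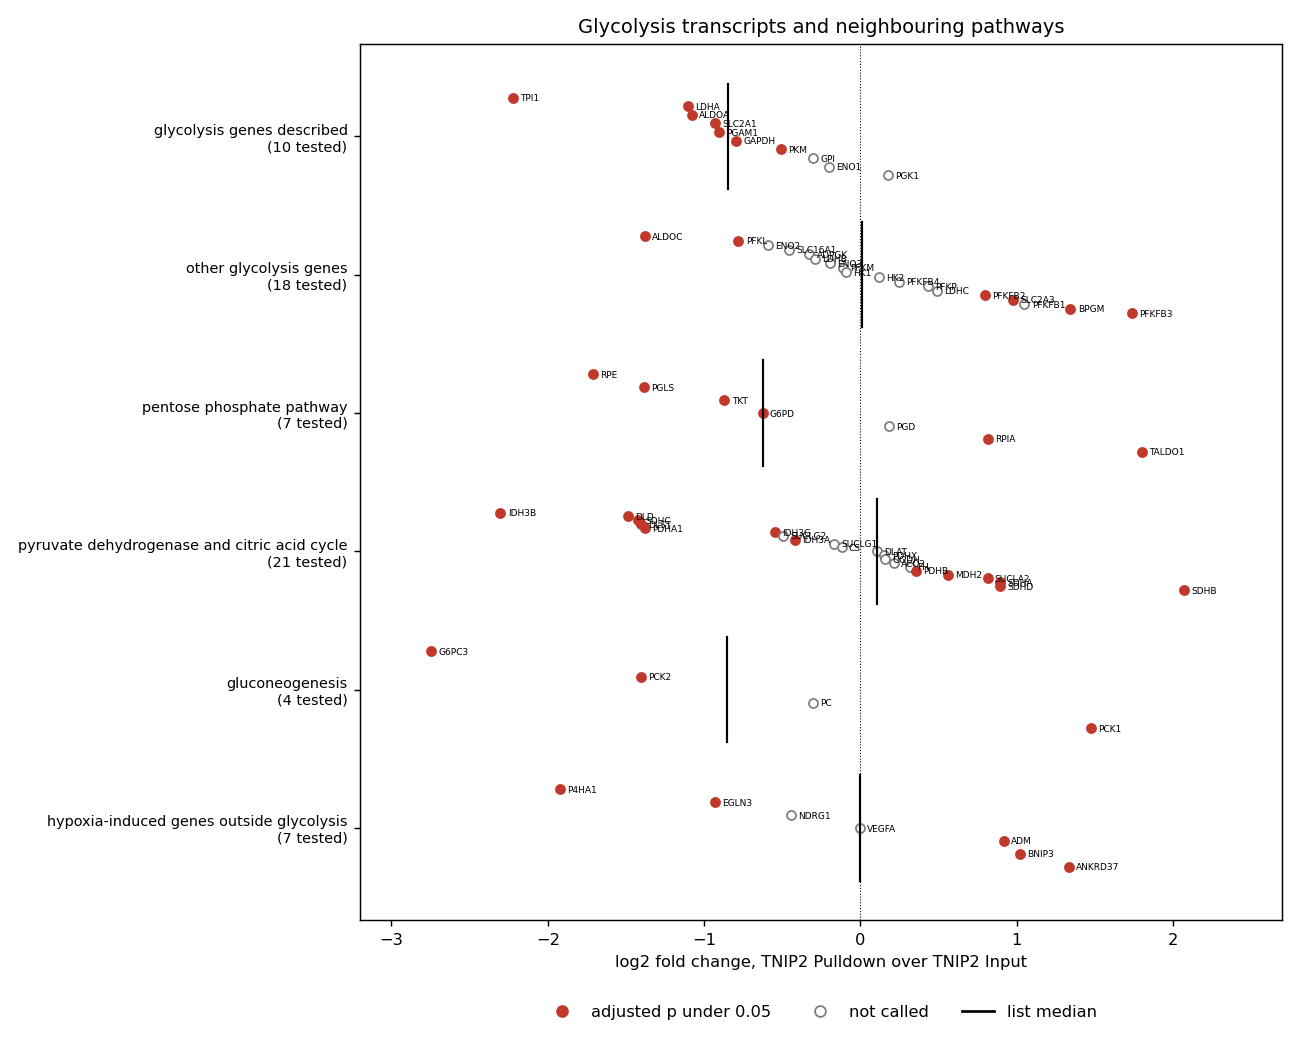
Log2 fold changes of TNIP2 Pulldown over TNIP2 Input for the 10 glycolysis genes and 5 other lists, with 1 point per gene tested, filled red where called, and a vertical black line at each list's median. The 10 genes have a median of -0.85, whereas the other glycolysis genes lie on both sides of 0 with a median of 0.01.

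For each of the 10 genes, the gene most like it was sought among 10536 genes with a mean normalized count of at least 100, by Pearson correlation of log2 values over the 12 libraries. The highest value was that of TPI1 with YIF1A (0.998), and the lowest that of PGK1 with APOA1BP (0.913). The others were PGAM1 with SCCPDH (0.986), LDHA with AKAP1 (0.985), ENO1 with COPE (0.978), ALDOA with NAPA (0.976), GPI with EML3 (0.974), PKM with SMO (0.972), SLC2A1 with BCAM (0.971) and GAPDH with SPPL2B (0.967). These are descriptions over 12 libraries in which the TNIP2 Pulldown libraries stand apart from the other 9 on the first principal component (66.7% of the variance).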

How the data were processed

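RNA libraries of 4 groups were compared through 2 deposited tables with 1 column per library; columns with the letter of no label were assigned to the TNIP2 fragment by elimination. The authors deposited normalized counts, a score of scaled whole numbers, and FPKM values, with TopHat2 2.0.14, DESeq2 1.6.3 and hg19 named per the submitters' processing notes; the sources used here give no counter, strand setting or annotation. A single constant per gene turns the deposited FPKM into the normalized count. Whole reads were recovered from steps in low FPKM values: of 126 to 196 values checked per library, all were whole within 0.1 reads except 1 of 190 in TNIP2 Pulldown replicate 1, and 12 of 12 steps were found on simulated tables. Control Pulldown was shallowest, so its values carry the largest counting error.

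From the deposited values, log2(normalized count + 1), which understates changes of low genes, was fitted in limma 3.58.1 (R 4.3.3; lmFit, eBayes with trend) with 4 group means, 12 libraries and 8 residual degrees of freedom. The 14627 genes with at least 10 in at least 3 libraries were tested two-sided with Benjamini-Hochberg adjustment over all of them. The fit was also run on simulated data with few changed genes, as many up as down, and 1 fixed spread. In TNIP2 Pulldown over TNIP2 Input 58.1% of genes were called, so that run does not test the fit in this setting. Alternatives changed the pseudocount, filter, table, scaling, tool, weights, libraries and replicate block. Members and lists were chosen with earlier results of these data known. Genes named by rule were the 10 members, TNIP2, the 4 most abundant genes per list, all HK, PFK and PFKFB genes tested, and the gene most like each member. ALDOC, BPGM and SLC2A3 were named as well, after their values were seen. Same-numbered TNIP2 Pulldown and TNIP2 Input libraries deviated together from their group means (correlations 0.37, 0.46 and 0.50), those of the Control groups less (0.077, 0.074 and 0.076).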

Additional observations from a re-analysis of the deposited data

Results flagged for a closer look

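The Pulldown over Input change differed between the TNIP2 fragment and the tag alone, by the interaction test in limma, for 4 of the 10 glycolysis transcripts, all lower, where 42.8% of all genes tested were called and 20.2% were lower. The difference on the log2 scale was -1.99 for TPI1 (adjusted p = 1.3e-05), -0.93 for LDHA (adjusted p = 0.042), -0.90 for SLC2A1 (adjusted p = 0.032) and -0.68 for PGAM1 (adjusted p = 0.030). The calls of SLC2A1, PGAM1 and LDHA ended in 7, 6 and 10 of 23 alternatives. The ratios given next come from the same libraries as the test, so they restate it and are no further support. The share of all genes with such an order was not counted. Same-numbered Pulldown over Input ratios of TPI1 and PGAM1 were lower in 3 of 3 TNIP2 pairs than in any Control pair. Those of SLC2A1, at 0.379, 0.440 and 0.866 for the TNIP2 fragment and 1.05, 0.918 and 0.969 for the tag alone, and of LDHA, at 0.455, 0.332 and 0.666 for the TNIP2 fragment and 1.06, 0.929 and 0.705 for the tag alone, showed the same order.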

How the results depend on the processing

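In the comparisons of 2 groups, most of the 24 alternatives left the members' counts and medians at or near those reported. For the difference of enrichments, most of the 23 alternatives changed the count of members called lower, as given below. Rescaling moved the medians most. Library weights moved the number of all genes called in either direction most, except in TNIP2 Pulldown over Control Pulldown. There it was 9669 with library weights and 9952 without both TNIP2 libraries numbered 3, against 8682 as reported. Rescaling moved the number called lower more in TNIP2 Pulldown over TNIP2 Input. That number was 6155 under scaling to the total and 5058 with library weights, against 4145 as reported. PGK1 changed direction under quantile normalization, at -0.43 in TNIP2 Pulldown over TNIP2 Input and -0.38 in TNIP2 Pulldown over Control Pulldown. In both comparisons PGK1 was also below 0, though not called, under ribosomal protein centring and scaling to the total. Centring on ribosomal protein genes shifted the median of all genes by -0.47 in TNIP2 Pulldown over TNIP2 Input, 0.13 in Control Pulldown over Control Input, -0.35 in TNIP2 Pulldown over Control Pulldown, 0.25 in TNIP2 Input over Control Input and -0.60 in the difference of enrichments. The members' medians were then -1.31, -0.011, -1.20, 0.17 and -1.30. Scaling to the total was an alternative added after seeing the data. It shifted all genes by -0.42, -0.45 and -0.48 in the 3 comparisons with TNIP2 Pulldown, and the members' medians were -1.27, -1.31 and -1.20. Relative to all genes, the members' median in TNIP2 Pulldown over TNIP2 Input was -0.85 as reported. Across the alternatives this difference ran between -1.22 under quantile normalization and -0.66 when TNIP2 Pulldown replicate 2 was left out. Ribosomal protein centring gave -0.85 and scaling to the total gave -0.86. Each of these scalings moves all genes of a library by nearly the same log2 amount, so their values cannot test the difference. The share of called genes that were higher was 51.3% as reported, 29.0% and 30.9% under these scalings in TNIP2 Pulldown over TNIP2 Input, 51.6%, 35.1% and 30.9% in TNIP2 Pulldown over Control Pulldown, and 52.7%, 22.4% and 27.4% in the difference of enrichments.

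For the difference of enrichments the median was -1.24 under quantile normalization. In this comparison 8 members were lower under quantile normalization, ribosomal protein centring, library weights, scaling to the total, and without both TNIP2 libraries numbered 3. Over all 14627 genes tested, 3157, 5057, 4406, 4978 and 3865 were lower in that order, against 2960 as reported. Leaving out 1 library gave 1 to 6 members lower, where 2498 to 3414 of all genes tested were lower. Library weights, whose fit did not converge, called PGK1 higher (1 member) in TNIP2 Pulldown over TNIP2 Input, TNIP2 Pulldown over Control Pulldown and the difference of enrichments, and 2 members, TPI1 and GAPDH, lower in TNIP2 Input over Control Input. With library weights 3621 genes were called in TNIP2 Input over Control Input, against 1 as reported and 3 without both TNIP2 libraries numbered 3, and 136 in Control Pulldown over Control Input, against 20. That count was 48 with only the groups compared, 31 under quantile normalization, and 42 without both TNIP2 libraries numbered 3. Leaving out 1 library gave 12 to 32. The replicate block gave 7 members lower in TNIP2 Pulldown over TNIP2 Input and 7 in TNIP2 Pulldown over Control Pulldown. It gave 5 in the difference of enrichments. Over all 14627 genes tested, 4670, 4324 and 3654 were lower in these comparisons. ALDOA was the member the block added to the difference of enrichments (adjusted p = 0.024), and it changed no other member's call. The cause of these shifts was not tested. Control Pulldown was the shallowest group.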
